A study of Mus musculus with 14 samples.

Results

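MHC class I heavy chains and B2m, the light chain they share, were followed through 14 mouse RNA-seq libraries. The members were chosen by symbol: the classical heavy chains H2-K1 and H2-D1, the light chain B2m, and the H2-Q, H2-T and H2-M heavy chains H2-Q4, H2-Q6, H2-Q7, H2-T9, H2-T10, H2-T24 and H2-M3. Of these 10 genes, 9 had a row, among 12924 genes in all, and all 9 passed the filter on low values. H2-D1 was not analysed here. A row named H2-L (gene ID 14980), another heavy chain gene name of the D region, is described beside the members and is not taken for H2-D1. C57BL/6 mice, of the H-2b haplotype, are known to carry no L gene.

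Tumors of the mouse line Lewis lung carcinoma (LLC) grew in the flanks of C57BL/6 hosts, and tissue was taken at day 14. The hosts were wild type (WT) or p110g-/-, that is, without functional PI3K gamma, the kinase whose catalytic subunit Pik3cg encodes. From each genotype there were 3 libraries of whole tumor (pieces of 30 mg) and 4 libraries of sorted CD11b+Gr1- cells (1000000 cells), which the labels call tumor-associated macrophages (TAM). The deletion is in the host, so a whole tumor mixes host cells of either genotype with the same LLC cells. The labels do not tie any library to an animal of its own, and the p-values therefore measure only how far these samples spread, which may be technical. In bulk RNA, fewer cells of a type and less RNA per cell cannot be told apart.

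A class I molecule is a heavy chain paired with B2m, and it carries a short peptide to the cell surface. The classical chains H2-K and H2-D show peptides of the cell's own proteins to CD8 T cells, on nearly all nucleated cells. The H2-Q, H2-T and H2-M chains are called nonclassical: H2-Q7 and H2-Q6 belong to the Qa-2 genes, of which H2-Q7 encodes a chain held by a lipid anchor, H2-M3 presents peptides with an N-formyl group, and the product of H2-T10 reaches the surface without peptide and is bound by some gamma delta T cells. Interferon gamma raises class I genes through IRF1, which binds the interferon-stimulated response element of their promoters, and NLRC5, the class I transactivator, which works through the X and Y boxes.

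The promoters of the members are shown as sequence, and whether they bear on the members' values was not tested. RefSeq windows (GRCm38.p6) matched 7 of the 10 listed genes, H2-D1 among them. The 180 bases before the start are printed for the 6 of these that had a row, 5′ to 3′ on the gene's strand: H2-K1 at chr17:34000348-34000527 (minus strand), B2m at chr2:122147507-122147686, H2-Q4 at chr17:35379437-35379616, H2-Q6 at chr17:35424670-35424849, H2-Q7 at chr17:35438975-35439154 and H2-M3 at chr17:37270054-37270233 (plus strand). H2-K1 has another, nearby start in the table, and the first is shown. Capitals mark matches to an interferon-stimulated response element, the kappa B site, the X2 box and the Y box, on either strand.
H2-K1: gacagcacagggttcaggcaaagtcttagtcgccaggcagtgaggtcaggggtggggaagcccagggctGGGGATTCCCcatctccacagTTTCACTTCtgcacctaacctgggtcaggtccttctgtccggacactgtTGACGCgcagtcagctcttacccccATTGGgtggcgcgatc
B2m: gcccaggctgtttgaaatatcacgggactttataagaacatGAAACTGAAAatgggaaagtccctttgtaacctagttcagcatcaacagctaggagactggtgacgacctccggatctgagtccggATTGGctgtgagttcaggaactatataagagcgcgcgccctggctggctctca
H2-Q4: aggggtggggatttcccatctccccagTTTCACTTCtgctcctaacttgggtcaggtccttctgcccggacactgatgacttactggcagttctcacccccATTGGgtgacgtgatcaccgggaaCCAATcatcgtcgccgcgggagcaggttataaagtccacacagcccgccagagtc
H2-Q6: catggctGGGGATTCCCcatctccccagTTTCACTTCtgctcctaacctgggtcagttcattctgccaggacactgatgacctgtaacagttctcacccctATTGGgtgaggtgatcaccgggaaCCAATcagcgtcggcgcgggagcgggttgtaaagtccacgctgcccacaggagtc
H2-Q7: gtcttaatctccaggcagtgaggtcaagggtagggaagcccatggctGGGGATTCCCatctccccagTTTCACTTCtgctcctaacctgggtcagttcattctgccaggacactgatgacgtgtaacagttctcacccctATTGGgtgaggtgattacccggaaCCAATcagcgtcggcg
H2-M3: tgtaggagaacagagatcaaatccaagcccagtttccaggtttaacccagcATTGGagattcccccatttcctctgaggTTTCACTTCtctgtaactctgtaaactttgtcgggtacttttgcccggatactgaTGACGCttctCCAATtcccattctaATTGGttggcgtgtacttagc

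The letters were searched in the 250 bases before the start, on both strands, and set against 32851 windows of that length. Matches are given for the 6 printed genes only, and those of H2-D1 are left out. The interferon-stimulated response element (GAAA, any 2 bases, GAAA) was in B2m, as GAAACTGAAA, and in 2.98% of all windows. A shorter form, GAANNGAAA was added after the sequences had been seen. It was in H2-K1, H2-Q4, H2-Q6, H2-Q7 and H2-M3 as the same reverse-strand TTTCACTTC, and in 6.31% of all windows. The kappa B site (GGGGA followed directly by TTCCC) was in H2-K1, H2-Q6 and H2-Q7 and in 0.0852% of windows. The X2 box TGACGC was in H2-K1 and H2-M3 (6.12% of windows), and the Y box CCAAT was in all 6 printed promoters (33.8%). The gamma-activated site (TTC, any 3 bases, GAA) was in H2-M3 alone of the 6, outside the printed stretch (7.02%). In H2-K1 the boxes lay in the order kappa B, response element, X2 box, Y box, with the response element at −90 to −82 counted from the start. A match describes the letters and is not a measured site. The printed H2-K1 and H2-Q stretches are alike over long runs, so their matches are not separate of each other.

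The values are gene counts scaled by library and rounded, called normalized counts below. Their sums were 33248294 to 38153438 in the TAM libraries and 25883561 to 27586429 in the tumor libraries, from an estimated 19.7 to 40.7 and 32.1 to 44.6 M reads. Pik3cg was lower in every p110g-/- library than in every WT library, with 1210 to 2211 against 2748 to 4477 in TAM and 242 to 417 against 487 to 616 in tumors. Genes of macrophages summed to 9263 to 12581 per 1000000 normalized counts (CPM) in the TAM and 1945 to 3125 in whole tumors. Within the TAM, the libraries numbered 1 stood apart for the members, highest of their group in 9 of 9 in both genotypes, and the mitochondrial share was 2.51% to 3.21% in the libraries numbered 1 and 2 and 7.70% to 14.4% in those numbered 3 and 4. TAM results are therefore given also without the libraries numbered 1. This choice was made from the members' own values, so those fits describe the dependence on these libraries and are no further test. These libraries also held the least fibroblast RNA of their group. Col3a1 was 1859 in WT TAM 1 and 458 in p110g-/- TAM 1, against 22074 to 43787 and 7161 to 34491 in the others. Krt8 was lowest there too (76 and 46), while Cdh1 was highest of its group in WT TAM 1 (2453). Leaving them out thus removes the TAM libraries with the least fibroblast RNA.

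Compared per length, B2m was the most abundant member in every group. Its level in WT TAM was 2240 ± 384 normalized counts per kilobase per 1000000 of the column total (SD, n = 4), against 725 ± 139 for H2-K1. The order below them in WT TAM was H2-Q7 at 104 ± 30.9, H2-Q4 at 90.8 ± 27.9, H2-Q6 at 34.9 ± 9.26, H2-M3 at 34.6 ± 3.53, H2-T10 at 9.22 ± 3.28 and H2-T24 at 8.10 ± 3.03. The neighbours H2-Q7 and H2-Q4, H2-Q6 and H2-M3, and H2-T10 and H2-T24 did not differ beyond their spread. In WT tumors (n = 3) B2m stood at 1066 ± 74.9, H2-K1 at 209 ± 36.3, H2-Q4 at 18.8 ± 3.59 and H2-Q7 at 14.6 ± 5.42 on the same scale, with H2-M3 at 11.3 ± 0.50 above H2-Q6 at 4.84 ± 1.64. H2-T9 had no length in the annotation used and is left out of this order.

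By their means, the members differed between the genotypes in opposite directions in TAM and in whole tumor. In sorted TAM every member had a lower mean in p110g-/- than in WT, from a ratio of means of 0.508 for H2-T24 to 0.855 for H2-K1. In whole tumor every member had a higher mean in p110g-/-, from 1.21 times for H2-M3 to 2.66 times for H2-Q4. The median log2 fold change over the 9 members was −0.44 in TAM and 0.92 in tumors, beside −0.01 and 0.01 over all genes tested. A lower fold in TAM together with a higher fold in tumor, with no test, held for 9 of 9 members and for 24.5% of 12396 genes.

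**Figure D1:**
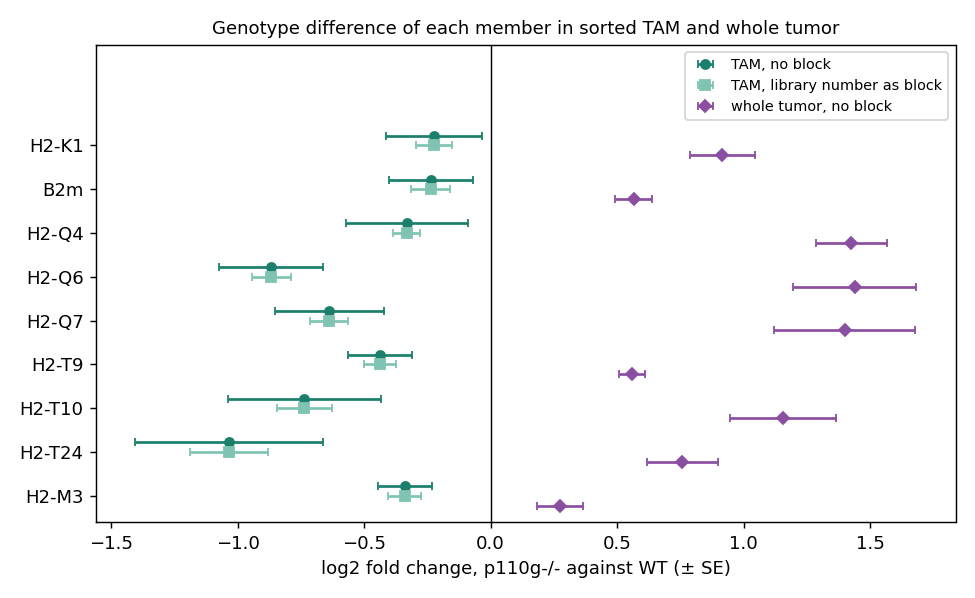
Genotype difference of each member as log2 fold change, p110g-/- against WT, with bars for ± SE. TAM values are drawn without (circles) and with (squares) the library number as a block, and tumor values (diamonds) without. All 9 TAM points lie below 0, from −1.03 to −0.22, and all 9 tumor points above it, from 0.28 to 1.44.

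In whole tumor, 8 of 9 members rose in the p110g-/- hosts in limma at an adjusted p below 0.05, where 2.25% of 12717 genes did so. H2-M3 was the member that did not pass. In all 9, the lowest p110g-/- library was above the highest WT library, as in 15.7% of genes. With the library number as a block the calls were those 8 again (3.45% of genes). The H2-Q chains had the largest changes, followed by H2-T10 and H2-K1.

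H2-K1 (gene ID 14972), the classical K chain, held 8176, 9775 and 11736 normalized counts in the WT tumors and 16831, 20138 and 18574 in the p110g-/- tumors. Its log2 fold change was 0.92 (SE 0.13, adjusted p = 0.0186 with limma). B2m (12010) held 24205, 23792 and 27339 in WT against 36117, 37921 and 37275 in p110g-/-. The shared light chain rose as well, by a log2 fold change of 0.57 (SE 0.07, adjusted p = 0.0135 with limma). The gap between the fold changes of H2-K1 and B2m was not tested.

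Each H2-Q chain was higher in p110g-/- tumors by 2.52 to 2.66 times, as a ratio of means. H2-Q4 (15015), which encodes the Qb-1 chain, held 732, 954 and 1091 in WT against 2211, 2670 and 2506 in p110g-/-, a log2 fold change of 1.43 (SE 0.14, adjusted p = 0.00743 with limma). H2-Q6 (110557) held 171, 305 and 354 in WT against 646, 789 and 727 in p110g-/- (1.44, SE 0.24, adjusted p = 0.0280 with limma). H2-Q7 (15018) held 358, 677 and 806 in WT against 1339, 1850 and 1451 in p110g-/- (1.40, SE 0.28, adjusted p = 0.0373 with limma). WT tumor 1 was the lowest for all 3 chains, farthest from the other WT tumors for H2-Q6 and H2-Q7.

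The H2-T chains rose by smaller steps than the H2-Q chains. H2-T9 (15051), a close relative of H2-T10, had the smallest SE of the 9 members, with 1675, 1747 and 1701 in WT against 2407, 2637 and 2503 in p110g-/- (0.56, SE 0.05, adjusted p = 0.00743 with limma). H2-T10 (15024) held 68, 70 and 97 in WT against 134, 209 and 187 in p110g-/- (1.16, SE 0.21, adjusted p = 0.0301 with limma). H2-T24 (15042), a T region chain, held 83, 83 and 98 in WT against 134, 147 and 168 in p110g-/- (0.76, SE 0.14, adjusted p = 0.0319 with limma). H2-M3 (14991) held 427, 433 and 469 in WT against 491, 599 and 523 in p110g-/-. Its groups did not overlap, but its log2 fold change of 0.28 (SE 0.09) gave an adjusted p of 0.118 with limma. H2-Q4 and H2-T9 passed with any single library left out, while between 2 and 9 members passed across the 6 leave-outs, 2 without WT tumor 2, p110g-/- tumor 2 or p110g-/- tumor 3 and 5 without WT tumor 1. The share of all genes called higher ran from 0.165% without p110g-/- tumor 2 to 7.69% without p110g-/- tumor 1, where all 9 members passed. With all 14 libraries in 1 fit, sharing 1 estimate of the spread, 0 of 9 passed, beside 0.101% of genes called higher.

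**Figure D2:**
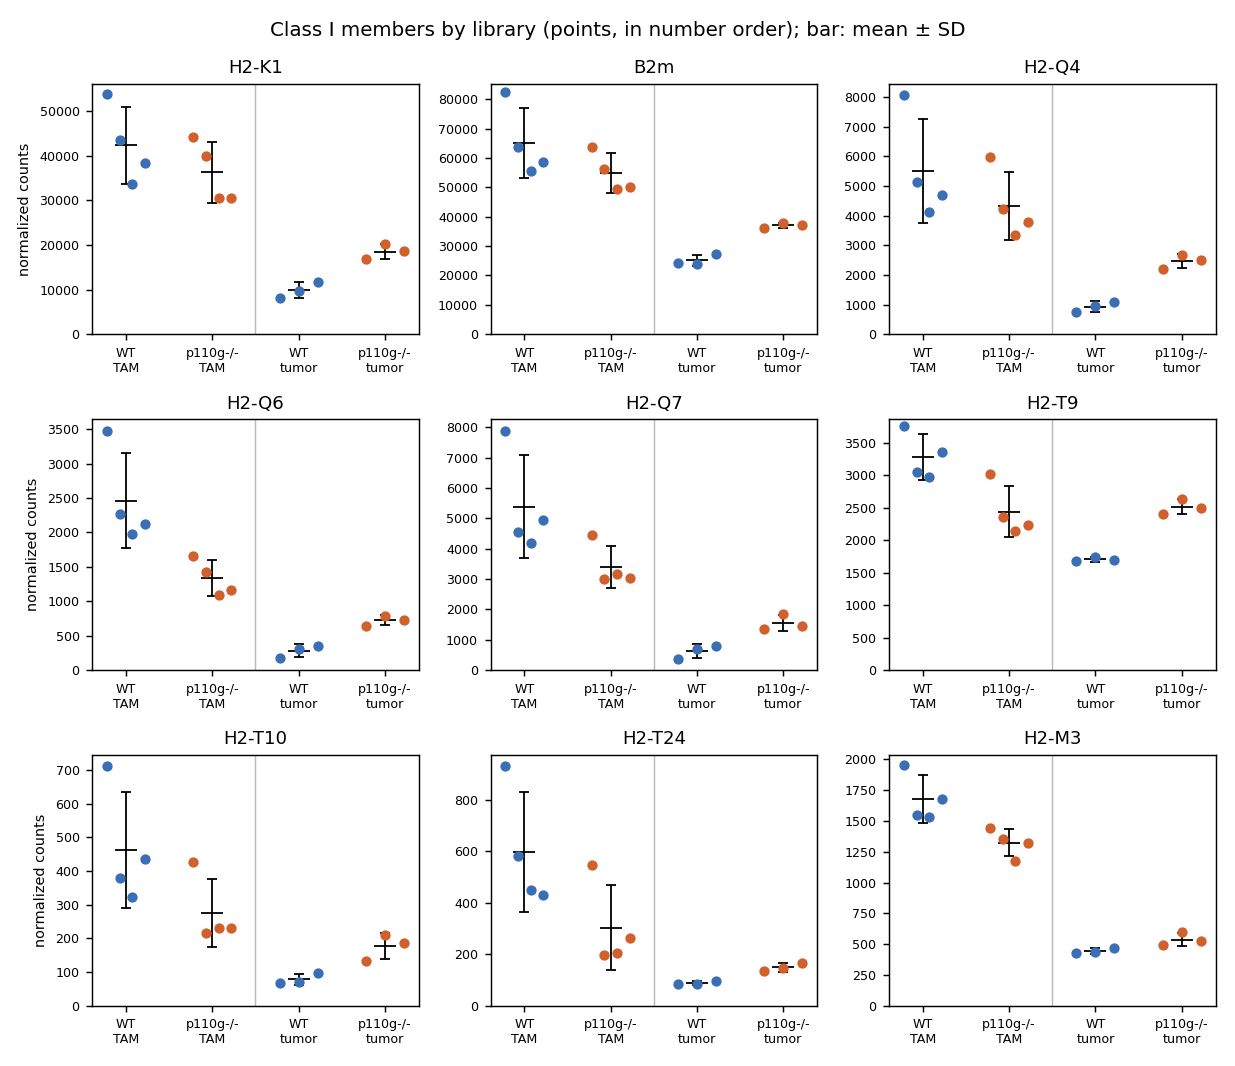
Normalized counts of each member in every library (points, in number order, blue for WT and orange for p110g-/-), with the mean ± SD per group. The tables of TAM and tumor, parted by the grey line, were scaled separately. The tumor groups do not overlap in any panel, and the TAM groups do not overlap for H2-Q6 and H2-M3.

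Markers of some other cells moved with the tumor result. T cell markers rose in 3 of 7 (Cd3d, Cd3g and Lck), and their sum was 4.18 to 10.7 CPM in WT against 16.8 to 22 in p110g-/- tumors. Markers of NK and cytotoxic cells rose in 2 of 7 (Nkg7 and Prf1, 5 with the block), with sums of 8.80 to 16.3 and 20.0 to 41.9 CPM. Gzma of that list had a lower mean in p110g-/- (56.0 against 77.7 normalized counts). Of the carcinoma and epithelial markers, 2 of 4 tested fell, the keratins Krt8 and Krt18, beside 2.1% of genes called lower. The sums of this list were 513 to 547 CPM in WT against 360 to 402 in p110g-/-. Krt7 had a higher mean in p110g-/- (42.0 against 36.0 normalized counts). Macrophage markers moved in 0 of 10 (1945 to 2562 and 2296 to 3125 CPM). No tested marker of B cells, neutrophils, dendritic cells, endothelium or fibroblasts was called in tumors. No marker of these lists was at 0 in all libraries of a group. The part of these cells in the rise of the members was not tested.

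In sorted TAM, no member passed in limma without a block, where 0.0401% of 12475 genes were called lower and 0.0721% higher. At an unadjusted p below 0.05, 6 of 9 were lower (2.34% of genes), the others being H2-K1, B2m and H2-Q4. Same-numbered TAM libraries deviated together, and so did those numbered 3 and 4 across the genotypes. With the library number as a block, 6 of 9 fell at an adjusted p below 0.05 (1.49% of genes): the 3 H2-Q and the 3 H2-T chains. H2-K1, B2m and H2-M3 did not pass in that fit. The labels do not give the pairing that the block uses, which was read from these same values. Within each of the 4 same-numbered pairs the p110g-/- library was lower for 9 of 9 members, as for 15.3% of genes.

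The classical chain and the light chain had the smallest differences. H2-K1 held 53881, 43427, 33747 and 38431 normalized counts in WT TAM 1 to 4 and 44113, 39853, 30470 and 30530 in p110g-/- TAM 1 to 4. The groups overlapped, and the log2 fold change was −0.22 (SE 0.19, adjusted p = 0.999 with limma, 0.168 with the block). B2m held 82384, 63757, 55462 and 58800 in WT against 63730, 56390, 49318 and 50158 in p110g-/-, overlapping as well (−0.24, SE 0.17, adjusted p = 0.999 with limma, 0.175 with the block). From the highest to the lowest library of a genotype the spread was wider than the difference between the genotypes for both genes.

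Of the H2-Q chains, H2-Q6 and H2-Q7 had the larger fold changes and H2-Q4 the smallest. H2-Q6 held 3477, 2271, 1972 and 2121 in WT against 1655, 1430, 1085 and 1159 in p110g-/-, with every p110g-/- library below every WT library. Its log2 fold change was −0.87 (SE 0.20, adjusted p = 0.301 with limma), and it fell in the fit with the block (SE 0.08, adjusted p = 0.00443). H2-Q7 held 7886, 4545, 4196 and 4938 in WT against 4437, 2988, 3149 and 3034 in p110g-/-. Only p110g-/- TAM 1 reached into the WT range of H2-Q7, and the fold change was −0.64 (SE 0.21, adjusted p = 0.618 with limma, 0.0110 with the block). H2-Q4 held 8093, 5144, 4119 and 4685 in WT against 5973, 4226, 3363 and 3773 in p110g-/-, with wide overlap (−0.33, SE 0.24, adjusted p = 0.999 with limma, 0.0300 with the block). Within pairs, the ratio of p110g-/- to WT was 0.476 to 0.630 for H2-Q6, 0.563 to 0.75 for H2-Q7 and 0.738 to 0.822 for H2-Q4.

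Among the H2-T chains and H2-M3, H2-T24 and H2-T10, the members at the lowest levels, had the largest differences. H2-T24 held 931, 581, 451 and 429 in WT against 546, 199, 206 and 264 in p110g-/-, where p110g-/- TAM 1 lay among the WT libraries and the other 3 below them (−1.03, SE 0.37, adjusted p = 0.665 with limma, 0.0238 with the block). H2-T10 held 711, 380, 323 and 436 in WT against 426, 215, 232 and 231 in p110g-/- (−0.74, SE 0.30, adjusted p = 0.797 with limma, 0.0234 with the block). H2-T9 held 3757, 3048, 2967 and 3367 in WT against 3014, 2356, 2138 and 2240 in p110g-/- (−0.44, SE 0.13, adjusted p = 0.469 with limma, 0.0213 with the block). For both genes, too, only p110g-/- TAM 1 overlapped the WT range. H2-M3 held 1956, 1549, 1529 and 1682 in WT against 1445, 1356, 1175 and 1321 in p110g-/-, with no overlap between the groups (−0.34, SE 0.11, adjusted p = 0.545 with limma, 0.0547 with the block). Groups without overlap, p110g-/- lower, were seen for 2 of 9 members, H2-Q6 and H2-M3, and for 1.93% of genes.

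The omission of the libraries numbered 1 was chosen after the members' values were seen. With both left out, H2-Q6 (adjusted p = 0.0368 with limma), H2-Q7 (0.0277) and H2-T24 (0.0457) passed without a block. These were 3 of 9 members, beside 0.486% of 12546 genes called lower. With the block the 3 H2-Q and 3 H2-T chains passed, beside 2.49% of genes. With the block and another pair left out, fewer members passed, and fewer genes in all. H2-Q6 alone passed without the pair numbered 2 (0.399% of genes called lower) or the pair numbered 4 (0.532%), at adjusted p = 0.0285 in both limma fits. H2-Q6 (adjusted p = 0.0302 with limma) and H2-Q7 (0.0274) passed without the pair numbered 3 (0.54%).

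**Figure D3:**
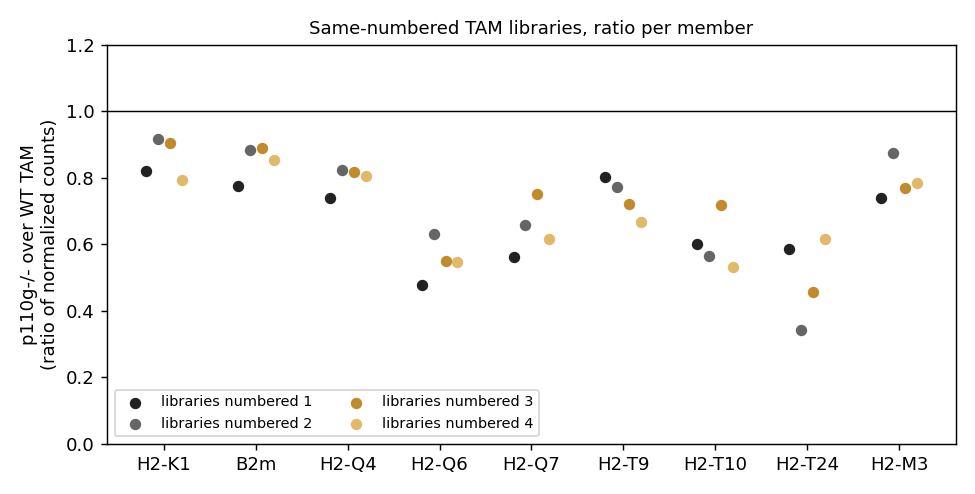
Ratio of normalized counts, p110g-/- over WT, within each of the 4 same-numbered pairs of TAM libraries, for each member. All 36 ratios lie below the line at 1, from 0.343 (H2-T24, libraries numbered 2) to 0.918 (H2-K1, libraries numbered 2).

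In the TAM, T cell markers summed to 3.17 to 5.98 CPM in WT against 3.20 to 7.71 in p110g-/-, with 0 of 6 tested called. Fibroblast markers varied most, 74.7 to 1567 CPM in WT against 20.9 to 1201 in p110g-/-, with 7 of 7 below 0 in log2 fold change and 0 called. Macrophage markers summed to 9833 to 12309 and 9263 to 12581 CPM, with 0 of 10 called (with the block, Cd14 rose and Fcgr1 fell). The part of fibroblast RNA, of the mitochondrial share and of depth in the lower class I values of the p110g-/- TAM was not tested.

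The difference between the genotype effects was tested over all 14 libraries, as the log2 fold change in TAM minus that in tumor. It was below 0 for all 9 members, with a median of −1.76 beside −0.02 over all genes. Without a block, 2 of 9 passed in limma (0.101% of 12821 genes were called lower): H2-Q6 at −2.31 (adjusted p = 0.0320) and H2-T9 at −1.0 (adjusted p = 0.0321). H2-Q4 at −1.76 (adjusted p = 0.0810) and H2-Q7 at −2.04 (0.0827) did not pass, nor did H2-K1 at −1.14 (0.155) or B2m at −0.80 (0.197). With the library number as a block, 9 of 9 passed (2.18% of genes), at adjusted p from 2.2e-04 for H2-Q4 to 0.0211 for H2-M3. That block also pairs the tumors, for which the values give little ground. Without a block, H2-Q6 passed in 4 of the 14 leave-outs of a single library and H2-T9 in 3 of them. Across these leave-outs 0% to 0.616% of genes were called lower.

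Set side by side in CPM, the TAM and tumor levels of the members lay closer together in p110g-/- than in WT. The TAM and tumor tables were scaled separately, so these levels carry no test. In WT, all 9 members were higher in every TAM library than in every tumor library, as were 27.0% of 12396 genes. The WT ratio of TAM to tumor means ran from 1.56 for H2-T9 to 7.20 for H2-Q6, and H2-K1 stood at 3.47 and B2m at 2.10. In p110g-/-, 3 of 9 members, H2-K1, H2-Q7 and H2-M3, were higher in every TAM library (22.1% of genes). The p110g-/- ratios were 1.49 for H2-K1, 1.13 for B2m, 1.34 to 1.67 for the H2-Q chains and 0.737 for H2-T9, which was the member with a lower mean in TAM than in tumor.

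**Figure D4:**
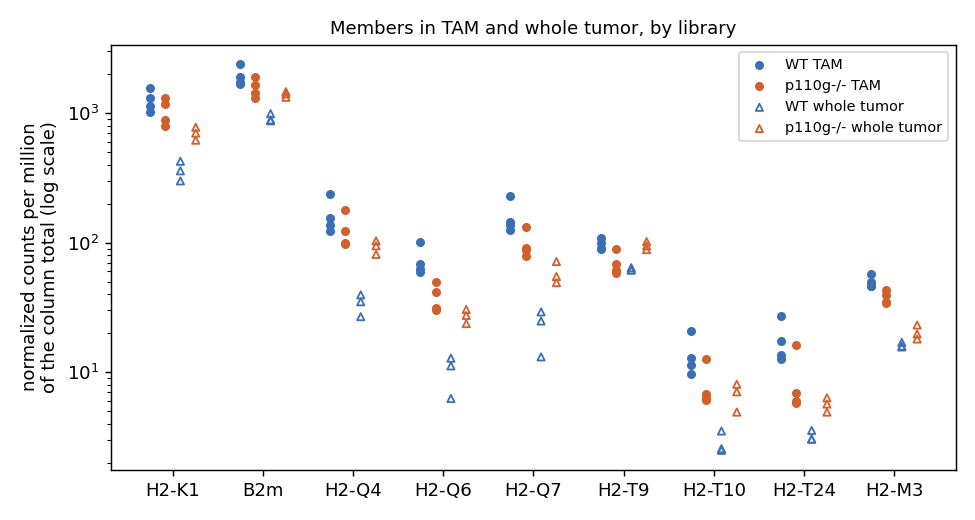
Members in every library as CPM of the normalized counts, on a log scale (filled circles, TAM; open triangles, whole tumor; blue, WT; orange, p110g-/-). In WT all TAM points lie above all tumor points for each of the 9 members, while in p110g-/- they do so for H2-K1, H2-Q7 and H2-M3.

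The mix of heavy chains differed between tissue and genotype. The 3 H2-Q rows held 19.6% to 24.1% of the heavy chain normalized counts of the members in WT TAM and 16.4% to 19.6% in p110g-/- TAM. In tumors the order was the other way, 10.8% to 13.8% in WT against 17.3% to 18.3% in p110g-/-, without overlap. H2-K1 held 66.8% to 71.3% in WT TAM, 71.6% to 75.7% in p110g-/- TAM, 69.6% to 71.8% in WT tumors and 69.3% to 69.7% in p110g-/- tumors. The H2-T rows held 6.58% to 7.59% and 5.26% to 6.47% in TAM, and 11.6% to 15.6% and 10.3% to 11.1% in tumors, WT first. These shares are of counts, not per length, and leave out the H2-L row. H2-Q6 took 17.9% to 19.2% of the H2-Q counts in WT TAM and 13.7% to 16.5% in p110g-/- TAM.

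B2m stood higher over H2-K1 in tumors than in TAM. The log2 ratio of B2m to H2-K1 counts was 0.55 to 0.72 in WT TAM and 0.50 to 0.72 in p110g-/- TAM, a full overlap. It was 1.22 to 1.57 in WT tumors and 0.91 to 1.10 in p110g-/- tumors, without overlap. These ratios were not tested.

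**Figure D5:**
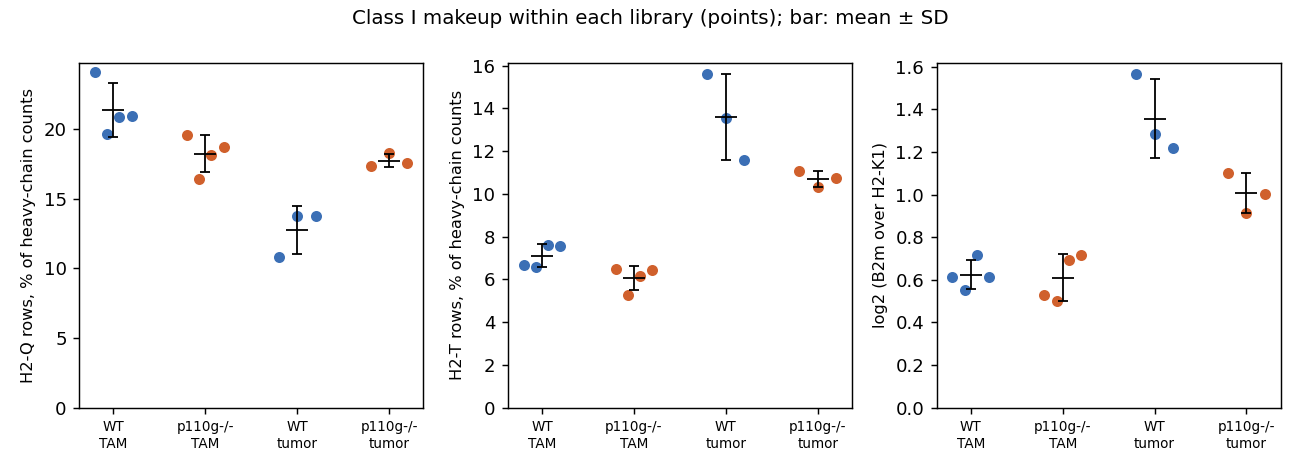
Makeup of class I counts in each library (points) with the mean ± SD per group: the H2-Q rows and the H2-T rows as percent of the members' heavy chain counts, and the log2 ratio of B2m to H2-K1. In WT tumors the H2-Q share is 10.8% to 13.8%, below the 17.3% to 18.3% of the p110g-/- tumors, and the log2 ratio of B2m to H2-K1 is 1.22 to 1.57, above their 0.91 to 1.10.

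The H2-Q and H2-T rows cannot be taken as fully separate readings. Of the 50-base windows of a gene's transcripts in GENCODE M21, 24.3% were shared with other genes for H2-Q4, 32.0% for H2-Q6, 34.9% for H2-Q7 and 42.9% for H2-T10, the latter mostly with H2-T22. The shares were 6.87% for H2-K1, mostly with H2-D1, 3.17% for H2-T24, 0.576% for H2-M3 and 0 for B2m. The sources used here do not give how a read that fits several genes was counted, so the values of the H2-Q genes, H2-T9 and H2-T10 are uncertain. With the H2-Q rows summed and H2-T9 and H2-T10 summed, 5 of 6 rows passed in tumor, where 8 of 9 had, beside 2.2% of 12714 genes called higher. In TAM with the block 3 of 6 passed, beside 1.47% of 12472 genes called lower. For the difference between the genotype effects, 0 of 6 passed without a block, beside 0.0858% of 12818 genes called lower. These sums do not cover windows shared with genes outside them, such as H2-T22 for H2-T10.

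The members' levels were correlated across libraries, least so within the tumor genotypes. Centred within each table, the correlation of log2 levels over the 14 libraries was 0.72 or more for every pair of members, with a median of 0.91. These values hold the genotype difference as well, and within genotypes the pairs ran from 0.72 to 0.99 in TAM, with a median of 0.88, and from 0.17 to 0.99 in tumors, with a median of 0.67. By the same measure over all 14 libraries, the 5 genes most like H2-K1 among 12396 were H2-L (0.985), the immunoproteasome subunit Psmb8 (0.984), the interleukin-18 antagonist Il18bp (0.973), the interferon-induced GTPase Tgtp2 (0.973) and the peptide transporter subunit Tap1 (0.971). For B2m the nearest 4 were Nlrc5 (0.987), H2-L (0.975), Il18bp (0.967) and the interferon-induced GTPase Igtp (0.955). For H2-Q7 the nearest 5 were Nlrc5 (0.942), H2-L (0.938), Ms4a4b, a membrane protein of T cells (0.936), Psmb8 (0.930) and Ifi47, another interferon-induced GTPase (0.924). The median over all other genes was −0.04, −0.05 and −0.04. The libraries share their depth and number, and no test goes with these values.

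Other class I and class I-like heavy chains were read from a list of 24 genes, of which 10 had a row. In tumors 3 of the 10 rose and 1 fell. H2-L held 24054, 25681 and 30588 in WT against 43403, 45753 and 44906 in p110g-/- tumors, a log2 fold change of 0.75 (SE 0.09, adjusted p = 0.0131 with limma). H2-T23, the Qa-1 chain that presents class I leader peptides to the CD94/NKG2A receptor, rose by 0.46 (SE 0.07, adjusted p = 0.0251), and H2-Q10, a secreted chain, by 0.83 (SE 0.15, adjusted p = 0.0319). Mr1, which presents vitamin B metabolites, fell (−0.37, SE 0.07, adjusted p = 0.0392 with limma, 0.0546 with the block). In TAM none of the 10 passed in either fit. H2-T23 stood at −0.31 (adjusted p = 0.999, 0.0559 with the block) and H2-L at −0.22, while Procr at 0.37 and Fcgrt at −0.16 (adjusted p = 0.999 for each) were the others of lowest p.

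The genes that cut, carry and load peptide rose with the heavy chains in tumors, 9 of 13 (Tap1, Tap2, Tapbp, Tapbpl, Psmb8, Psmb9, Psmb10, Psme2 and Erap1), with a list median of 0.37 beside 0.01 over all genes. Psmb9, an immunoproteasome subunit, went from 288 ± 45.8 to 657 ± 68.4 normalized counts (SD, n = 3 each; log2 fold change 1.19, adjusted p = 0.00927 with limma). Tap1 went from 763 ± 135 to 1656 ± 198 (1.12, adjusted p = 0.0105 with limma) and Psmb8 from 863 ± 182 to 1708 ± 147 (1.00, adjusted p = 0.0200 with limma). Erap1, which trims peptides, rose by 0.36 (adjusted p = 0.0271 with limma). In TAM, 0 of 13 passed without a block, and Tap1 fell with it (−0.39, adjusted p = 0.999 with limma, 0.0388 with the block). Psmb10 at −0.28, and the chaperones Calr at 0.23 and Pdia3 at 0.16, did not pass in either fit.

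Of 14 genes for the factors that act on class I promoters, 3 rose in tumors, Nlrc5 and Irf1 among them (list median 0.12). Nlrc5 held 428, 469 and 614 in WT against 1036, 1361 and 1275 in p110g-/- tumors, without overlap (1.29, SE 0.15, adjusted p = 0.00940 with limma). Irf1 rose by 0.76 (adjusted p = 0.00940 with limma), and Nfya, of the factor that binds the Y box, stood at 0.16 (adjusted p = 0.115). In TAM none of the 14 passed without a block. Nlrc5 held 4672, 2466, 1939 and 2079 in WT TAM and 2431, 1710, 1586 and 1442 in p110g-/- TAM, highest in library 1 of both genotypes, as the members were (−0.57, adjusted p = 0.972 with limma, 0.0470 with the block). Rfxap at 0.29, Rfxank at −0.27 and Nfkb1 at 0.11 did not pass in either fit.

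Among interferon ligands, receptors and their signal genes, Ifng rose in tumors, 1 of 9 tested. Its values were low, 2, 2 and 9 normalized counts in WT against 33, 45 and 39 in p110g-/- (log2 fold change 3.15 with an SE of 0.50, adjusted p = 0.0243 with limma). The lowest WT values were near those that 3 reads are worth (1.79 to 5.81 over the libraries), so the size of its fold change is loosely set. The receptor genes Ifngr2 at 0.20 and Ifngr1 at −0.19, and the inhibitor Socs1 at −0.25, did not pass. In TAM none of 8 tested passed in either fit, with Ifngr1 at −0.19, Socs1 at −0.25, Jak2 at 0.22 and Ifnar2 at −0.17.

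Genes of receptors that bind class I rose in tumors in 5 of 8 tested (Cd8a, Cd8b1, Klrc1, Klra2 and Pirb). Cd8a, a chain of the CD8 coreceptor, held 9, 8 and 16 in WT against 92, 67 and 73 in p110g-/- tumors (2.75, SE 0.29, adjusted p = 0.00823 with limma). Klrc1, which encodes NKG2A, went from 25.0 ± 8.7 to 113 ± 7.0 (2.20, adjusted p = 0.0126 with limma), and Cd8b1 from 10.3 ± 3.2 to 35.3 ± 11.4 (1.67, adjusted p = 0.0365 with limma, 0.0543 with the block). Pirb, an inhibitory receptor of myeloid cells, went from 2376 ± 332 to 3587 ± 456 (0.60, adjusted p = 0.0395 with limma). In TAM 0 of 7 tested passed in either fit: Cd160 stood at 0.56, Pira6 at −0.15, Klra2 at 0.19 and Cd8a at −0.56, the last with 6 to 23 counts in WT against 0 to 19 in p110g-/- libraries.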

How the data were processed

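Gene-level RNA was compared between genotypes within TAM (4 WT, 4 p110g-/-) and within whole tumor (3 and 3). The submitters' processing notes name the aligner Bowtie2, the package DESeq and build mm9, without versions or an order of use. The sources used here do not give the gene counter or annotation. As read from the values, the deposited score is a whole number per gene and library, a gene count that the authors scaled and rounded. A column of each table headed pp runs from 0 to 1 per gene, and the sources used here do not explain it. Depth was estimated from the spacing of the values, with a step finder that, tested on simulated data, came within 1% in 14 of 14 libraries. A value of 3 reads is 1.79 to 5.81 normalized counts, counting error only.

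The planned count model could not be used on a score, so limma 3.58.1 (R 4.3.3), tested on simulated data, was fitted to log2(normalized count + 1), which understates the change of low genes. Genes needed 10 normalized counts in at least 4 TAM or 3 tumor libraries. Tests were two-sided, with Benjamini-Hochberg adjustment over all genes tested. A gene is said to rise or fall at an adjusted p below 0.05. The members, the gene lists and the tests were chosen with earlier results of these data known. All members are named, and of each pathway list up to 4 genes of lowest p in each comparison, except 1 gene that is not reported here. Same-numbered libraries correlated in their deviations from group means at 0.826, 0.559, 0.790 and 0.671 in TAM and 0.117, 0.122 and 0.181 in tumors. The numbers are treated as pairing the samples, by that hint from the TAM values. The labels do not say what a number marks. In tumors, differently numbered libraries reached 0.143, so the tumor values give little ground for pairing. In TAM the numbers 3 and 4 are not told apart. WT TAM 4 correlated best with p110g-/- TAM 3 (0.747), and WT TAM 3 correlated with p110g-/- TAM 4 at 0.697. The fits with the block rest on a pairing read from these same values. Levels per length used GENCODE M21 exon lengths (GRCm38), not the files' build. Alternatives were pseudocounts of 0.5 and 8, no filter on low values, rescaling by TMM factors, and the library number as a block. Others were all 14 libraries in 1 fit, leaving out libraries, and summing rows (H2-Q4, H2-Q6 and H2-Q7, and H2-T9 with H2-T10).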

Additional observations from a re-analysis of the deposited data

Results flagged for a closer look

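2 of the 18 groups of 4 TAM libraries (9 members, 2 genotypes) held a library far from the others. The rule flags about 1 in 20 independent groups by chance. The members correlated within TAM genotypes (median 0.88) and both flags fell on p110g-/- TAM 1, so the 18 groups are not separate draws. H2-Q7 stood at 4437 normalized counts in p110g-/- TAM 1, with the other 3 p110g-/- TAM libraries between 2988 and 3149. H2-T10 stood at 426 in that library, with the others between 215 and 232. WT TAM 1 was also the highest WT library for both genes.

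The genotype effect differed between TAM and whole tumor for 2 members in limma over all 14 libraries without a block: H2-Q6 (−2.31 on the log2 scale, adjusted p = 0.0320) and H2-T9 (−1.0, adjusted p = 0.0321). Both were lower in 4 of 4 same-numbered TAM pairs, as were all 9 members and 15.3% of genes. Both were higher in every p110g-/- tumor than in every WT tumor, as were all 9 members and 15.7% of genes. With the H2-Q rows summed and H2-T9 summed with H2-T10, no row of the members passed this test, beside 0.0858% of genes called lower. With 1 library left out, H2-Q6 passed in 4 of 14 fits and H2-T9 in 3.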

How the results depend on the processing

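All 459 values of single members under an alternative kept their sign, while 51 lost a call and 38 gained one. Some could not change sign, since the block of all libraries, the missing filter and the 14-library fit return the main fold change. Pseudocounts and TMM factors moved it little, and the leave-outs reuse the same libraries. The kept signs are therefore not separate tests of direction. In TAM, 0 of 9 members passed. With the replicate block 6 passed, as with the block and TMM rescaling, and with the block and rows summed as above 3 of 6. Genes called lower were 1.49%, 1.39% and 1.47% in these fits. Without the libraries numbered 1, 3 passed, and with the block and 1 pair left out 1 to 6 did. Genes called lower were 0.486% and 0.399% to 2.49% in these fits. The block settings other than the block alone, and the omission of the libraries numbered 1, were chosen after the data were seen. Leaving out 1 TAM library gave 0 in each case, beside 0% to 0.207% of genes called lower, and a median fold change of −0.54 to −0.37. In tumor, 8 passed, also with the block, beside 2.25% and 3.45% of genes called higher. The number was 5 of 6 with rows summed (fewer rows are tested, and the median moved to 0.67), 0 with all 14 libraries in 1 fit, the cause of which was not tested, and 2 to 9 with 1 library left out (median 0.79 to 1.05). Genes called higher were 2.2%, 0.101% and 0.165% to 7.69% in these tumor fits. For the difference, 2 passed, 9 with the replicate block, 0 of 6 with rows summed and 0 to 6 with 1 library left out, the highest without p110g-/- TAM 1. The share of all genes called lower was 0.101%, 2.18%, 0.0858% and 0% to 0.616% in these fits. It, too, was highest without p110g-/- TAM 1 among the leave-outs. Pseudocounts of 0.5 and 8, no filter and TMM rescaling left these 3 numbers as they were. The block changed no other call among the members in tumor. As to depth, every member stood above the 1.79 to 5.81 normalized counts that 3 reads are worth in every library.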

Other observations

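The authors' deposited tables give each gene a pp value between 0 and 1. In the authors' deposited table for TAM it was 1 for H2-Q6, 0.999988 for H2-Q7, 0.9995 for H2-T10, 0.9993 for H2-T9 and 0.986 for H2-T24, 0.940 for H2-Q4 and 0.926 for H2-M3. H2-K1 at 0.361 and B2m at 0.357 were the lowest of the members there. In the authors' deposited table for whole tumor the order was different, from 0.999999 for H2-Q4, 0.99998 for H2-T9, 0.996 for B2m and 0.950 for H2-K1 to 0.395 for H2-Q7 and 0.0081 for H2-M3.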
